A study of Mus musculus with 8 samples.

Results

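Hesx1, Pitx1, Lhx3, Lhx4, Pou1f1, Tbx19 and Isl1 are transcription factors that pattern Rathke's pouch and set the hormone lineages of the pituitary. These 7 genes were chosen by name and were followed through both readouts, as 7 of the 27998 genes of the single-cell table and 7 of the 55450 genes of the bulk table. The measurements came from mouse median eminence (ME), the floor of the third ventricle where hypothalamic axons release their hormones. The single-cell RNAseq library was pooled from the ME of 10 wild-type female C57BL/6 mice (C57BL/6N in the study's methods) aged 2 months, so its cells gave no replicates and no test. Bulk RNAseq was made from the ME of 3 control mice (C57BL/6, wild type) and 4 mutant mice (Rax-CreERT2::BrafV600E, labelled Rax::BrafV600E mutant on C57BL/6) with 1 mouse to a library and no sex stated. The labels give all of them as 2 months old, whereas the methods place the dissection 2 months after tamoxifen, which switched on BrafV600E in cells with Rax-driven Cre. The paper describes the mutant ME at that time as enlarged and the dissected mutant tissue as tumour. Rax-CreERT2 is a knock-in that drives Cre where Rax is expressed, which in this region is mainly in tanycytes, the ependymoglial cells lining the ventricle.

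The pituitary arises from oral ectoderm that meets the floor of the forebrain. Hesx1 is a homeodomain repressor of the early pouch, Pitx1 is a homeodomain factor that stays on in most hormone cells, and Lhx3 and Lhx4 are LIM-homeodomain factors needed for the pouch to grow. Later, Pou1f1 (Pit-1) is required in the somatotroph, lactotroph and thyrotroph lineages of the anterior lobe, Tbx19 (Tpit) drives Pomc in corticotrophs and melanotrophs, and Isl1 marks thyrotrophs and gonadotrophs. The pars tuberalis is the thin sheet of pituitary cells wrapped around the ME, and its Tshb-expressing cells are known for working without Pou1f1. Isl1 is also used outside the pituitary, among others by neurons of the arcuate nucleus beside the ME.

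Promoter sequences of 4 genes are shown because the results below turn on them. Hesx1 had the widest gap between control and mutant mice among the 7 factors. In the pars tuberalis-like cells, Tbx19 shared its cells with Pomc. Cga was the hormone gene with the most UMIs in the pars tuberalis-like cells with Pitx1, Lhx3 and Isl1. Each is the 250 bases before the start given by RefSeq (GRCm38.p6), written 5′ to 3′ on the gene's own strand, with capitals for exact matches to TAATCC (the Pitx homeodomain motif), TAATTA (a LIM-homeodomain motif) or AGGTGT (the core of a T-box motif) on either strand. The 3 motifs shared no bases in these windows.
Hesx1, chr14:27000112-27000361, plus strand: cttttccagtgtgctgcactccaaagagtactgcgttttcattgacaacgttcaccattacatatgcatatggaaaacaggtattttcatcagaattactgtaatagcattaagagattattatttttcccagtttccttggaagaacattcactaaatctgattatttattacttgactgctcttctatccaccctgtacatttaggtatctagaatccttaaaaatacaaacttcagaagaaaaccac
Tbx19, chr1:165160774-165161023, minus strand: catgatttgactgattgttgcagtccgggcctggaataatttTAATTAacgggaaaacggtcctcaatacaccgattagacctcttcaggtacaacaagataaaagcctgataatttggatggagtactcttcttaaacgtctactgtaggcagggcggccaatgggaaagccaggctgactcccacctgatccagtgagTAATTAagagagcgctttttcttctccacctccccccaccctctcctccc
Cga, chr4:34893529-34893778, plus strand: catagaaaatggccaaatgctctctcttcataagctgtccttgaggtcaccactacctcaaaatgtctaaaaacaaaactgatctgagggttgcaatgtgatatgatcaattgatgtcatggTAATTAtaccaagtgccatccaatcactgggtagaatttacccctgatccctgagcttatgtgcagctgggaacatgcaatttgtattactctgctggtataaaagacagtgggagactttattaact
Pomc, chr12:3954695-3954944, plus strand: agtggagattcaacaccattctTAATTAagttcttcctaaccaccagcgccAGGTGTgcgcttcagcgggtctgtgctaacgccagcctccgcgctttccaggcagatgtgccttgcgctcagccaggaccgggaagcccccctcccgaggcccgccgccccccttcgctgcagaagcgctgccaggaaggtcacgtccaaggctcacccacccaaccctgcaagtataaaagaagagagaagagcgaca

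The Tbx19 window held TAATTA at 208 and at 50 bases before the start, the Cga window held TAATTA at 128 bases, and the Pomc window held TAATTA at 228 bases and AGGTGT at 199 bases. The Hesx1 window held none of the 3 motifs. It lies inside an intron of a longer annotated Hesx1 transcript and just before the shorter one. The table held 6 of the 7 factors, and among the other factors the Isl1 window alone held a match, TAATCC at 177 bases. Over the 32851 windows of 300 bases in the table, 7.06% held TAATCC, 5.29% held TAATTA and 13.7% held AGGTGT, so these short words are common, and a match is a description of the letters and not a binding site.

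The 990 cells of the single-cell library held between 3284 and 57119 unique molecular identifiers (UMIs, 1 per captured RNA molecule), with a median of 7831.5. They were grouped into 11 clusters without using the 7 factors or the other pituitary gene lists. Of these, 55 cells formed a pars tuberalis-like cluster with 7 of 7 markers of that cell type, led by Cga, Cck and Chga, and 49 cells formed a neuron-like cluster led by Npy, Agrp and Cartpt. The remaining clusters were erythrocyte-like (242 cells), VLMC-like (vascular leptomeningeal cells, 180), tanycyte-like (178), macrophage- or microglia-like (81), OPC-like (oligodendrocyte precursor cells, 60), ependymal-like (47), oligodendrocyte-like (44), NK- or T-cell-like (31) and arachnoid barrier-like (23). The pars tuberalis-like cluster also passed for 4 of 7 markers of other pituitary endocrine cells. Among other such overlaps, the VLMC-like cluster passed for 7 of 7 endothelial and 5 of 5 mural markers. The ependymal-like cluster passed for 4 of 8 tanycyte markers. Free RNA was present, for haemoglobin transcripts made up 0.363% of the UMIs of the median cell that was not erythrocyte-like. Shares of cells are therefore given beside those in erythrocyte-like cells, which should lack every one of these factors (median 7707.5 UMIs against 5280 in pars tuberalis-like cells and 31422 in neuron-like cells). Intervals are exact 95% intervals and cover counting error only. The limit given for a count of 0 is instead the level of 3 UMIs, or the share of 3 cells. That limit lies below the upper end of the exact interval.

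Pitx1, Lhx3 and Tbx19 were concentrated in the pars tuberalis-like cells, Isl1 was split between those cells and the neurons, Hesx1 was met once, and Lhx4 and Pou1f1 were not met. Over all 990 cells the library held 363 UMIs of Isl1 in 80 cells, 268 of Pitx1 in 51 cells, 28 of Lhx3 in 18 cells, 20 of Tbx19 in 10 cells and 1 of Hesx1. The 55 pars tuberalis-like cells took 88.4% of the Pitx1 UMIs, 85.7% of those of Lhx3, 70% of those of Tbx19 and 36.1% of those of Isl1. Lhx4 and Pou1f1 were at 0, which allows up to 0.305 CPM (counts scaled to a total of 1000000) over the library and up to 0.303% of cells with a UMI. Within the pars tuberalis-like cluster alone, a count of 0 allows up to 6.56 CPM, so a low level of Pou1f1 or Lhx4 in those cells could not be told from none at this depth.

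**Figure D1:**
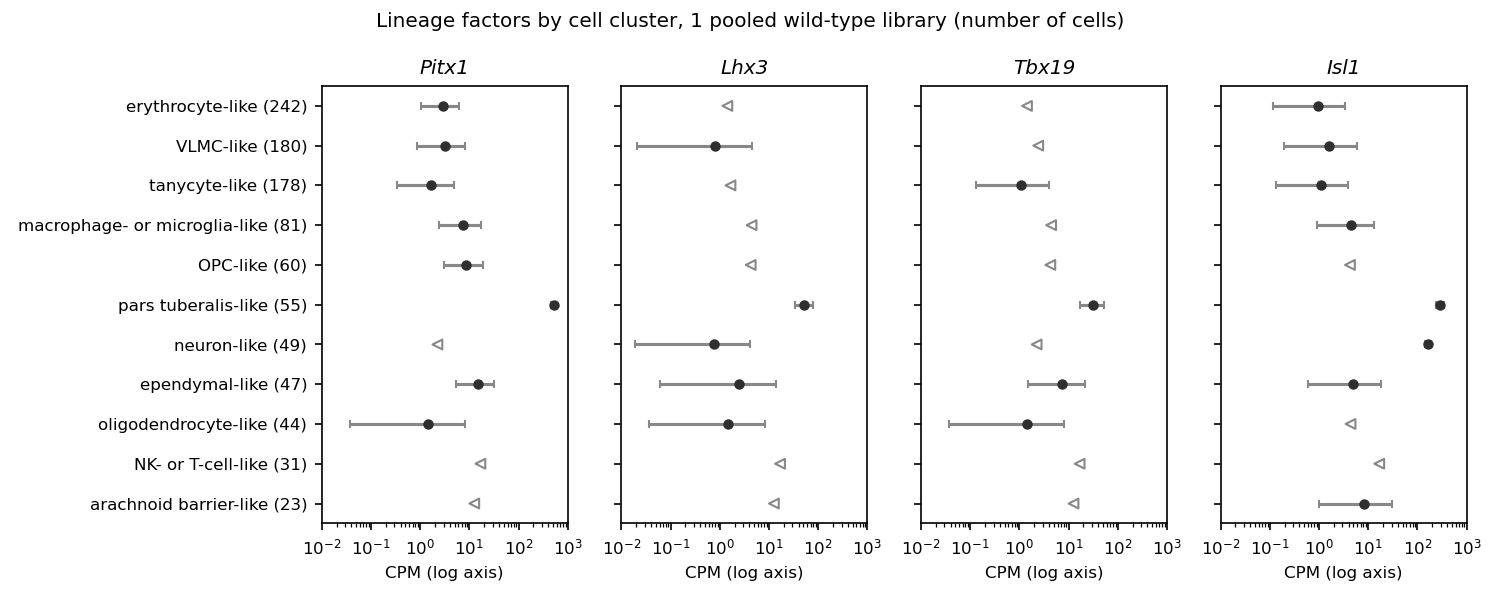
The level of 4 factors in the 11 clusters of the single-cell library, as CPM on log axes with exact 95% intervals (bars), the number of cells being given beside each cluster. Open triangles mark clusters with no UMI, placed at the level that 3 UMIs would give. Pitx1 at 518 CPM, Lhx3 at 52.5 CPM and Tbx19 at 30.6 CPM peak in the pars tuberalis-like cells, while Isl1 is high there and in the neuron-like cells.

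Pitx1 had the clearest preference. It reached 518 CPM in the pars tuberalis-like cells (454.5 to 589) and was present in 26 of the 55, or 47.3% of them (33.7 to 61.2), against 2.48% of erythrocyte-like cells. The next cluster was the ependymal-like one at 14.8 CPM (5.44 to 32.2), where 5 of the 6 UMIs came from a cell that also held 54 UMIs of Cga and 92 of Cck. No Pitx1 UMI was found in neuron-like cells, whose depth allows up to 2.24 CPM.

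Lhx3 was sparser and was likewise highest in the pars tuberalis-like cells. It stood at 52.5 CPM in the pars tuberalis-like cells (33.6 to 78.1), in 14 of 55 cells, and at 2.47 CPM or less in any other cluster, with no UMI in the 242 erythrocyte-like cells. No cell held more than 3 Lhx3 UMIs, whereas 1 cell held 44 UMIs of Pitx1. UMIs in this library are counted at the 3′ end, so levels of different genes here are not corrected for how well each is captured.

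Tbx19 reached 30.6 CPM in the pars tuberalis-like cells (16.7 to 51.4) through 14 UMIs in only 5 of the 55. Elsewhere 3 UMIs fell in ependymal-like cells, 2 in tanycyte-like cells and 1 in an oligodendrocyte-like cell. None of these cells outside the cluster held more than 1 UMI of Pomc. The ependymal-like value of 7.41 CPM had an interval from 1.53 to 21.6, which overlaps that of the pars tuberalis-like cells.

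Isl1 stood at 287 CPM in pars tuberalis-like cells (240 to 340) and at 164 CPM in neuron-like cells (143 to 187). The share of cells ran the other way, with 22 of 55 pars tuberalis-like cells and 45 of 49 neuron-like cells holding a UMI, against 0.826% of erythrocyte-like cells. The neurons were sampled far more deeply, and when every cell was thinned to 3000 UMIs the level was 169.7 CPM (113 to 245) in the pars tuberalis-like cells and 190.5 CPM (127 to 275) in the neurons, in 29.1% and 36.7% of cells. These thinned intervals overlap, with 28 Isl1 UMIs in each cluster, and the mean of the per-cell levels was 188 CPM in pars tuberalis-like and 154 CPM in neuron-like cells, so the order of the clusters for Isl1 was not resolved. In every other cluster Isl1 was at or under 8.39 CPM. The same thinning left Pitx1 at 333 CPM, Lhx3 at 42.4 CPM and Tbx19 at 30.3 CPM in pars tuberalis-like cells, the last from 5 UMIs.

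Among the 45 Isl1-positive neurons, 45 held Npy, 44 held Agrp and 36 held Slc32a1, the vesicular GABA transporter, against 41.7%, 29.8% and 0% of erythrocyte-like cells. They were not of 1 kind. In 41 of them Agrp, a feeding-related neuropeptide of the arcuate nucleus, had a median of 133 UMIs (0 to 372). Npy had a median of 296 UMIs there (6 to 879), so some of the 41 held little of either. Pomc, met in 10.3% of erythrocyte-like cells, reached at most 8 UMIs in the 41. The other 4 held 41 to 496 UMIs of Pomc, at most 4 of Agrp, at most 8 of Npy and none of Slc32a1, with Isl1 at 2 to 8 UMIs. This split was made after the values were seen, and the Isl1 level was 166 CPM in the 41 cells and 167 CPM in the 4. Of the 45 neurons none held Pitx1 or Tbx19, and 1 held Lhx3.

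The pars tuberalis-like cluster was not uniform. Epcam, an epithelial adhesion gene, was present in 33 of its 55 cells, and these 33 held every UMI of the 7 factors in the cluster. The other 22 cells had none, and they were shallow cells with a median of 3906 UMIs against 7793. They also nearly lacked genes that are abundant in the 33, with Cga at 91.1 against 17166 CPM, Cck at 50.6 against 11622 CPM and Chga at 202 against 27022 CPM, so the name of the cluster rests on the 33 cells. In those 33 Pitx1 stood at 661 CPM, in 26 cells. This split and those by Tshb, Pomc and Fshb below were made after the values were seen. In all, 23 of the 55 cells held no factor (median 3930 UMIs), 11 held 1 (median 7292) and 7 held 2 (median 5182). A further 13 held 3 (median 16940) and 1 cell of 4061 UMIs held 4. Cells with 3 factors were thus the deepest set, but depth did not rise at each step. The part of depth in the number of factors met was not tested.

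**Figure D2:**
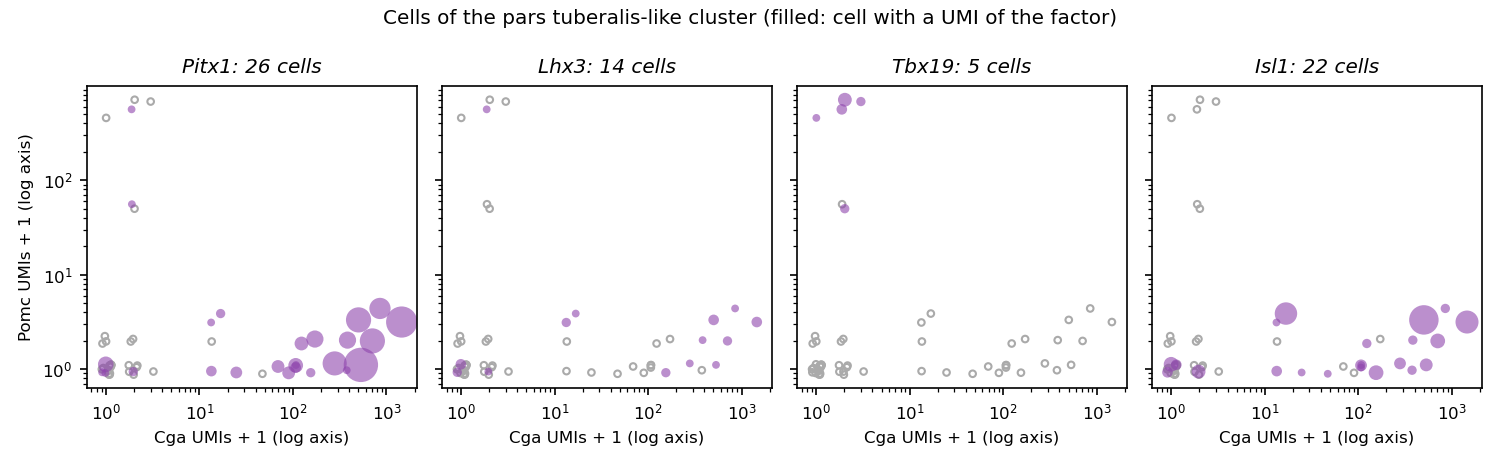
The 55 pars tuberalis-like cells by their UMIs of Cga and of Pomc, each plus 1, on log axes with a slight horizontal and vertical scatter so that equal cells can be seen. Filled circles are cells with a UMI of the factor named above the panel, larger with more UMIs, and open circles are cells without one. The 5 cells with Tbx19 are among the 6 with high Pomc, and the 22 cells with Isl1 lie outside them.

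Pitx1, Lhx3 and Isl1 shared cells. All 14 Lhx3-positive pars tuberalis-like cells also held Pitx1 (lower limit 76.8%) and 13 of the 14 held Isl1. Of the 22 Isl1-positive cells, 20 held Pitx1. These same cells carried the thyrotroph transcripts, for Tshb, the beta subunit of thyrotropin, was present in 15 of the 26 Pitx1-positive cells, in 8 of the 14 with Lhx3 and in 14 of the 22 with Isl1. After thinning to 3000 UMIs, 4 of 6 Lhx3-positive cells held Pitx1, and 14 of 16 Isl1-positive cells did. Cga, the alpha subunit shared by thyrotropin and the gonadotropins, was found in 23 of the 26 Pitx1-positive cells, compared with 27.7% of the erythrocyte-like ones.

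The 18 cells with Tshb took 189 of the 237 Pitx1 UMIs of the cluster. Their Pitx1 level was 950.5 CPM, compared with 186 CPM in the 37 cells without Tshb. A Tshb UMI was also met in 3.31% of erythrocyte-like cells, and in these 18 cells Tshb ran from 1 to 81 UMIs. The 10 cells with at least 5 of them held Pitx1 at 1062 CPM, in all 10. Isl1 stood at 292 CPM in the 18 cells, 14 of which held it, and at 283 CPM in the 37, of which 8 did. Among the 37, the 4 cells with Fshb described below took most of the Isl1, and the 33 with neither hormone stood at 90.9 CPM of Isl1 and 85.2 CPM of Pitx1. Lhx3 stood at 65.4 CPM with Tshb and 42.6 CPM without. Epcam was met in 16 of the 18 cells but in only 17 of the 37, and cells without Epcam held no factor. The levels of the 37 are therefore lowered by such cells, and the Epcam-positive cells alone were not compared by Tshb. The cell with the most Pitx1, at 44 UMIs, held 496 UMIs of Cga, 527 of Cck and 17 of Tshb among its 17296 UMIs. No Tshb-positive cell held Tbx19.

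Tbx19 instead marked a small set rich in Pomc, the precursor of corticotropin and melanotropin. In 6 cells Pomc stood at 48 to 669 UMIs, far above the 3 UMIs that any other cell of the cluster reached. These 6 cells held all 14 Tbx19 UMIs of the cluster, in 5 cells, at 274 CPM, and the other 49 held none. Isl1 and Tshb were both at 0 in the 6 cells, and Pitx1 and Lhx3 were near the limit of detection there, with 2 UMIs and 1 UMI. Pitx1 in the other 49 cells stood at 579 CPM and Isl1 at 323 CPM. No UMI of Pax7, the melanotroph selector gene, was found in the cluster. The 6 cells held only 51035 UMIs in all, so a low level of Pax7 in them could not be told from none.

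The 4 cells with Fshb, the beta subunit of follitropin, had the highest Isl1 level of these sets at 692 CPM, with Pitx1 at 401 CPM, Lhx3 at 85.0 CPM and Tbx19 at 0. Fshb stood at 1 to 6 UMIs in them, and 0.413% of erythrocyte-like cells held a UMI of it. Those 4 cells included the cell with the most Isl1, which gave 32 of their 57 Isl1 UMIs. Isl1 and Pitx1 were each met in only 3 of the 4. The only Hesx1 UMI of the library lay in a pars tuberalis-like cell of 4061 UMIs that held 1 UMI of Pitx1, 2 of Lhx3, 3 of Isl1 and 9 of Epcam but none of Tshb, Cga, Cck, Pomc, Fshb or Lhb. A single UMI does not set a level.

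Likeness between genes was measured as the Jaccard index of the cells that held each gene (cells with both over cells with either), over 990 cells and 14061 genes. This is a description, since deep cells hold more of every gene. Pitx1 was most like Cldn9 (0.364), Cldn7 (0.319) and Epcam (0.300). Genes most like Lhx3 included Ripk4 (0.417) and Slc44a3 (0.333). Tbx19 was most like Pabpc1l (0.238), Tnnt1 (0.156) and Neurod1 (0.150). The nearest genes of Isl1 were highest in neurons, namely Pacsin1 (0.479), Celf3 (0.473) and Plppr4 (0.450). Between the factors themselves the index was 0.278 for Pitx1 with Lhx3, 0.191 for Pitx1 with Isl1, 0.0339 for Pitx1 with Tbx19 and 0.0112 for Tbx19 with Isl1.

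Other factors of pituitary development were also met in the 55 pars tuberalis-like cells. Gata2, a factor of thyrotrophs and gonadotrophs, stood at 217 CPM in 18 cells. Neurod1, a factor of corticotrophs, stood at 50.3 CPM in 10 cells, Six3 at 83.1 CPM and Six6 at 56.9 CPM. Zbtb20 stood at 464 CPM and Egr1 at 787 CPM. The levels of these factors in the other clusters are not given here, so the values do not make them particular to this cluster. Among the hormone transcripts Cga stood at 13477 CPM, Cck at 9122, Pomc at 5427, Tshb at 641, Lhb at 30.6 and Fshb at 26.2 CPM, and 2459 of the 2481 Pomc UMIs came from the 6 cells described.

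Bulk RNAseq then allowed the factors to be compared between control and mutant mice. The 7 libraries held 4928456 to 13816596 counts and 17874 to 40852 genes with a count, and tanycyte markers summed to between 866 and 1291 CPM in each of them. Gene counts do not show the BrafV600E allele, so the genotype labels were not checked. Across 20466 genes tested by edgeR's quasi-likelihood test with Benjamini-Hochberg adjustment, 0 genes (0%) passed an adjusted p of 0.05, against 1661 genes at an unadjusted p under 0.05 and 301 genes by DESeq2 (1.51% of the genes to which it gave an adjusted p). The median gene lay 0.126 higher in mutants on the log2 scale by TMM scaling and 0.253 higher with library sizes alone, so small shifts around 0 are relative to that. In whole tissue, fewer cells of a type and less RNA per cell cannot be told apart, and p-values measure the spread between these mice.

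Of the 7 factors, 6 passed the filter on low counts, and Pou1f1 did not. Hesx1 passed it through the control libraries alone, its mutant counts being too low. None of the 6 passed the adjusted threshold. At an unadjusted p under 0.05, 4 of the 6 were lower in mutants (Hesx1, Pitx1, Lhx3 and Isl1), where 3.89% of all tested genes were lower, and 0 of the 6 were higher, where 4.23% of all were. The groups did not overlap for Hesx1 and Isl1, both lower in mutants, which held for 3.14% of all tested genes. No factor was higher in mutants without overlap, which held for 5.78%. The median log2 change of the 6 factors was -1.17, beside 0.13 over all tested genes, of which 43.3% lay below 0. Without the filter, 2 of the factors and 0.503% of 47682 genes passed the adjusted threshold.

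**Figure D3:**
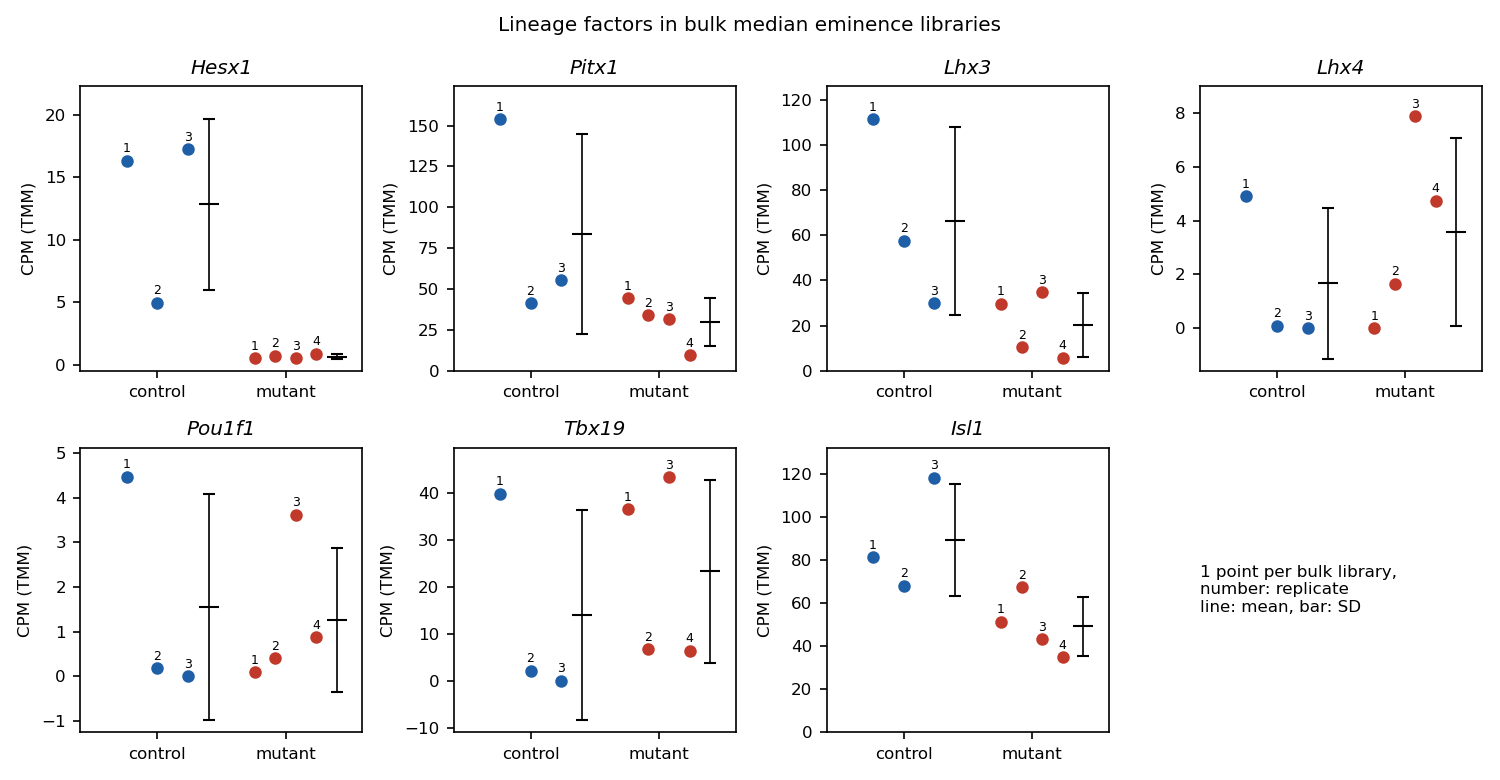
The level of the 7 factors in 3 control and 4 mutant bulk libraries, as TMM-normalised CPM. Points are single libraries, and the mark beside them is the mean with its SD. Hesx1 lies between 4.96 and 17.3 CPM in control mice and between 0.494 and 0.880 CPM in mutant mice, whereas Tbx19, Lhx4 and Pou1f1 spread as widely within groups as between them.

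Hesx1, the early pouch repressor, separated the groups most widely. Its normalised level was 16.3, 4.96 and 17.3 CPM in control mice 1 to 3 and 0.498, 0.725, 0.494 and 0.880 CPM in mutant mice 1 to 4, resting on 146, 56 and 202 counts against 5, 7, 3 and 5 counts. The mutant levels rest on few counts, since 3 counts equal 0.299 to 0.528 CPM in these libraries. Hesx1 thus entered the test only through the group in which it was high. Its p-value and its place in the counts above are given as description. Every mutant library lay below every control library, and the lowest control was 5.63 times the highest mutant. The control mean was 12.8 CPM ± 6.84 (SD, n = 3) and the mutant mean was 0.649 CPM ± 0.188 (SD, n = 4). By edgeR's quasi-likelihood test the log2 change was -4.28 (SE 0.72), a 19.4-fold lower level in mutants, with an unadjusted p of 0.000117 and an adjusted p of 0.130. DESeq2 gave an adjusted p of 2.1e-05 and edgeR without the filter 0.0018, so the call depended on the method, while the log2 change stayed between -4.65 and -3.95 under all 17 alternatives tried, as the plot of log2 changes by setting shows.

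The Hesx1 gene lies at chr14:26994416-27002329 on the plus strand of GRCm38, and its exons overlap no other annotated gene. Hesx1 was detected in 1 of the 990 wild-type cells, so the cell type behind the bulk level was not resolved by the single-cell library.

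Pitx1 stood at 154, 41.5 and 55.4 CPM in control mice and at 44.5, 34.2, 31.4 and 9.51 CPM in mutant mice. Mutant mouse 1 lay just above control mouse 2, so the groups overlapped, and control mouse 1 stood far above all others. The log2 change was -1.48 (SE 0.55; unadjusted p = 0.0218, adjusted p = 0.522, edgeR's quasi-likelihood test). Without control mouse 1 it was -0.70 (adjusted p = 0.389 by the same test). The gene lies at chr13:55825051-55836192 on the minus strand, where 2.34% of its exonic stretches also occur in Gm28760 on the same strand and 4.45% in the antisense gene Gm47071, whose reads cannot be told apart from its own in libraries that do not mark strand.

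Lhx3 stood at 111, 57.6 and 29.98 CPM in control mice and at 29.8, 10.5, 34.7 and 5.81 CPM in mutant mice. Mutant mouse 3 lay above control mouse 3, and the other mutant libraries lay below all controls. The log2 change was -1.71 (SE 0.62; unadjusted p = 0.0189, adjusted p = 0.520, edgeR's quasi-likelihood test), and -1.13 without control mouse 1. It passed the adjusted threshold only without the filter on low counts (adjusted p = 0.0186). Lhx3 lies at chr2:26200212-26208289 on the minus strand, with 4.65% of its exonic sequence shared with the antisense gene Gm27196.

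Isl1 stood at 81.6, 68.2 and 118 CPM in control mice and at 51.5, 67.4, 43.3 and 34.9 CPM in mutant mice. All mutant libraries lay below all controls, but the gap between mutant mouse 2 and control mouse 2 was under 1 CPM. The log2 change was -0.85 (SE 0.32; unadjusted p = 0.0234, adjusted p = 0.526, edgeR's quasi-likelihood test). Agrp and Npy, which shared its neurons, did not separate the groups. Agrp ran from 291 to 691 CPM in control mice and from 201 to 608 CPM in mutant mice, and Npy from 1073 to 2990 and from 1180 to 2787 CPM. Over the 11 tested arcuate neuron genes the median log2 change was 0.86, with 3 of them below 0. The part of neurons in the Isl1 change was not tested. Isl1 lies at chr13:116298281-116309689 on the minus strand.

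Tbx19 differed widely between the mice of each group. It stood at 39.9, 2.21 and 0.0854 CPM in control mice and at 36.6, 6.83, 43.5 and 6.51 CPM in mutant mice. The groups overlapped, with control mouse 1 among the high mutant libraries. The log2 change was 0.74 (SE 1.28; adjusted p = 0.927, edgeR's quasi-likelihood test), and without control mouse 1 it was 4.32 (adjusted p = 0.0998), so 1 control library decided its size. Pomc followed the same libraries, at 6349, 352 and 1460 CPM in control mice and 15854, 1595, 19397 and 902 CPM in mutant mice. In both genes control mouse 1 and mutant mice 1 and 3 were the 3 highest libraries. Tbx19 lies at chr1:165137855-165160773 on the minus strand.

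Lhx4 and Pou1f1 were low, and at 0 in some libraries. Lhx4 stood at 4.92, 0.0886 and 0 CPM in control mice and at 0, 1.66, 7.90 and 4.75 CPM in mutant mice, with no separation of the groups. Its log2 change was 1.10 (SE 1.80; adjusted p = 0.920, edgeR's quasi-likelihood test) and 5.92 without control mouse 1 (adjusted p = 0.125). Pou1f1 stood at 4.47, 0.177 and 0 CPM in control mice and at 0.0997, 0.414, 3.62 and 0.880 CPM in mutant mice, from 40, 2 and 0 counts against 1, 4, 22 and 5. Control mouse 1 and mutant mouse 3 were its high libraries, and these also held the most Gh, the somatotroph hormone, at 844 CPM (0.0886 and 0.256 in the other controls) and 149 CPM (0.414 to 0.880 in the other mutants). Lhx4 lies at chr1:155698031-155751684 on the minus strand and Pou1f1 at chr16:65520511-65535005 on the plus strand. Of the Pou1f1 exonic stretches, 2.60% also occur in other genes in the same sense and 4.86% in antisense.

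**Figure D4:**
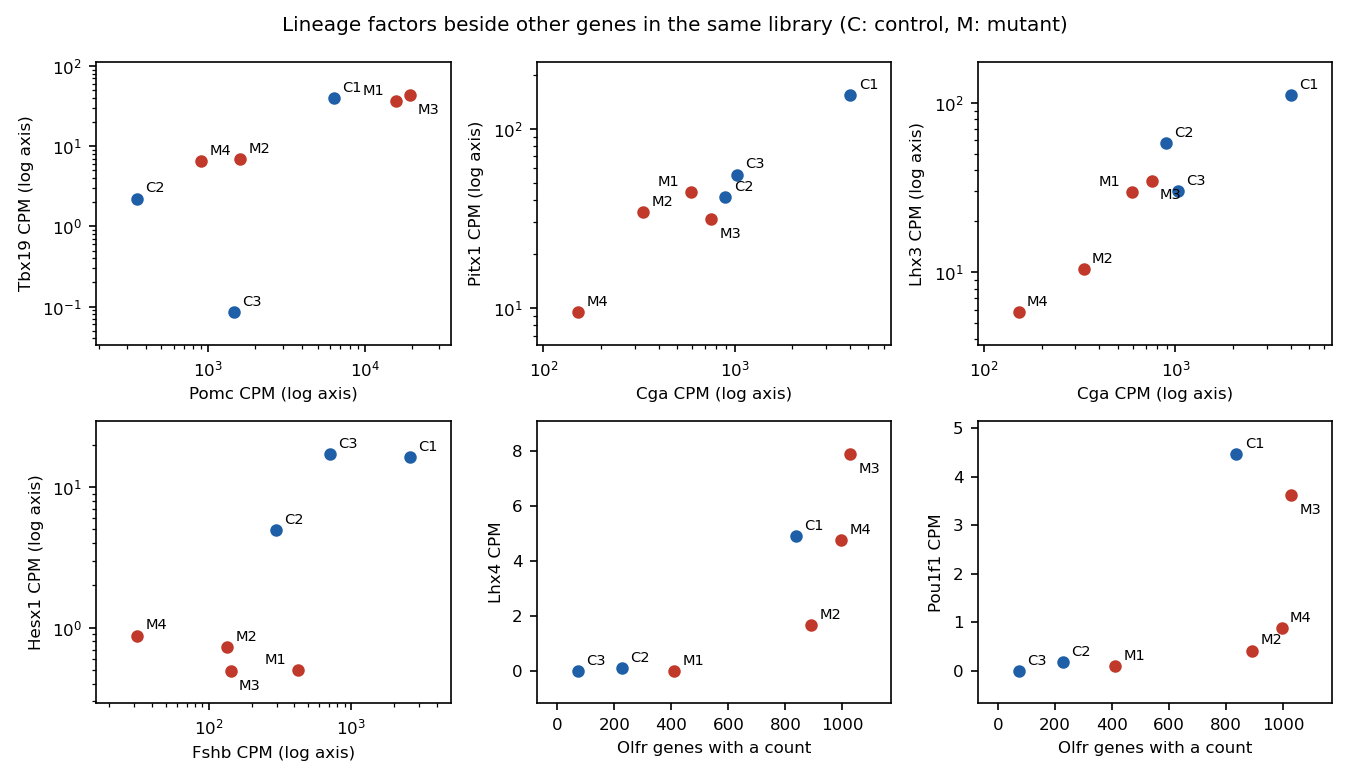
Each point is 1 bulk library (C, control; M, mutant, with the mouse number). The upper row sets the CPM of Tbx19 against Pomc and of Pitx1 and Lhx3 against Cga on log axes. The lower row sets Hesx1 against Fshb on log axes, and Lhx4 and Pou1f1 against the number of olfactory receptor genes with a count. Libraries C1, M1 and M3 are the highest in both Tbx19 and Pomc, and all 4 mutant libraries lie below 1 CPM of Hesx1.

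Markers of other pituitary endocrine cells (Gh, Prl, Pomc, Lhb, Fshb, Ghrhr and Gnrhr) differed between libraries within each group. Pomc made up most of their sum in every mutant library. Some neurons of the single-cell library were also rich in Pomc, so the sum is not particular to pituitary cells. The summed level of markers of other pituitary endocrine cells was 15152, 710 and 2518 CPM in control mice and 16368, 1877, 19878 and 958 CPM in mutant mice, while the summed pars tuberalis markers stood at 10141, 3287 and 4003 CPM against 2456, 2210, 3006 and 1039 CPM. The pars tuberalis sum was thus lower in every mutant library, by a small gap between 3287 CPM in control mouse 2 and 3006 CPM in mutant mouse 3. It adds Tshb, Cga, Cck, Mtnr1a, Chgb, Scg2 and Eya3, which did not all move alike. Of the 7 tested hormone genes, Tshb, Cga and Cck among them, only Cga was lower in mutants without overlap. Of the 12 receptor and hormone-processing genes, Mtnr1a, Chgb and Scg2 among them, 1 was. Over all tested genes, 3.14% were lower in mutants without overlap. Pitx1, Lhx3 and Hesx1 were read beside the pars tuberalis sum. The part of the amount of pituitary tissue in each dissection in these differences was not tested. The number of olfactory receptor genes with a count, a measure chosen after the data were seen for transcripts the ME should lack, was 836, 227 and 73 of 1111 in control mice and 410, 891, 1028 and 995 in mutant mice. Lhx4 and Pou1f1 were both highest in the 4 libraries with the most of these genes. The direction of Lhx4 turned to -2.58 (adjusted p = 0.882, edgeR's quasi-likelihood test) with the number of detected genes as a covariate.

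Per kilobase of exon, the scale on which different genes can be set beside each other in the bulk libraries, the order in control mice was Pitx1 at 31.5 ± 23.1 CPM per kb, Isl1 at 22.6 ± 6.57, Lhx3 at 21.8 ± 13.6, Hesx1 at 10.3 ± 5.48, Tbx19 at 4.41 ± 7.01, Pou1f1 at 0.398 ± 0.650 and Lhx4 at 0.291 ± 0.490 (SD, n = 3). Each pair of neighbours in this order differed by less than the larger of its SDs. In mutant mice Isl1 stood at 12.4 ± 3.50, Pitx1 at 11.3 ± 5.53, Tbx19 at 7.31 ± 6.10, Lhx3 at 6.63 ± 4.67, Lhx4 at 0.623 ± 0.608, Hesx1 at 0.520 ± 0.151 and Pou1f1 at 0.322 ± 0.414 CPM per kb (SD, n = 4). Here only the step from Lhx3 to Lhx4 was larger than both SDs of its pair, and Hesx1 stood in the sixth place rather than the fourth. Exonic length was taken from the annotation, which holds 1.248 kb for Hesx1 and 5.74 kb for Lhx4.

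Of 28 other pituitary transcription factors, 25 were tested and 0 passed the adjusted threshold of edgeR's quasi-likelihood test. At an unadjusted p under 0.05, 4 were lower in mutants, among them Gata2, Insm1 and Hes1, and 2 were higher, among them Nr4a1, with a median log2 change of -0.13. Over all tested genes, 3.89% were lower and 4.23% were higher at that threshold. Gata2 stood at 194, 58.5 and 26.4 CPM in control mice and at 49.6, 27.6, 21.9 and 11.1 CPM in mutant mice, and these groups overlapped. Insm1 stood at 8.49, 4.61 and 8.29 CPM in control mice and at 2.09, 2.80, 2.47 and 2.64 CPM in mutant mice, without overlap. Its log2 change was -1.50 (SE 0.66; unadjusted p = 0.0440, adjusted p = 0.599, edgeR's quasi-likelihood test).

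The pituitary hormone genes were uneven. Of 8 such genes 7 were tested, and 4 were lower in mutants at an unadjusted p under 0.05 (Cga, Prl, Lhb and Fshb), 0 passed the adjusted threshold, and none were higher, with a median log2 change of -2.12. For this list and those below, the shares over all tested genes were 3.89% lower and 4.23% higher at that unadjusted threshold. Cga stood at 4027, 894 and 1025 CPM in control mice and at 591, 331, 751 and 152 CPM in mutant mice, without overlap. Tshb, which sat in the Pitx1-rich cells of the single-cell library, stood at 71.6, 73.2 and 49.97 CPM in control mice and at 98.6, 76.3, 172 and 35.9 CPM in mutant mice. Its groups overlapped, with a log2 change of 0.56 (SE 0.46; adjusted p = 0.809, edgeR's quasi-likelihood test). Of 12 receptor and hormone-processing genes, all tested, 4 were lower at an unadjusted p under 0.05 (Gnrhr, Pcsk1, Chgb and Scg2) and none were higher. Of 11 tested arcuate neuron genes, none were lower and 2 were higher (Ghrh and Slc17a6).

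**Figure D5:**
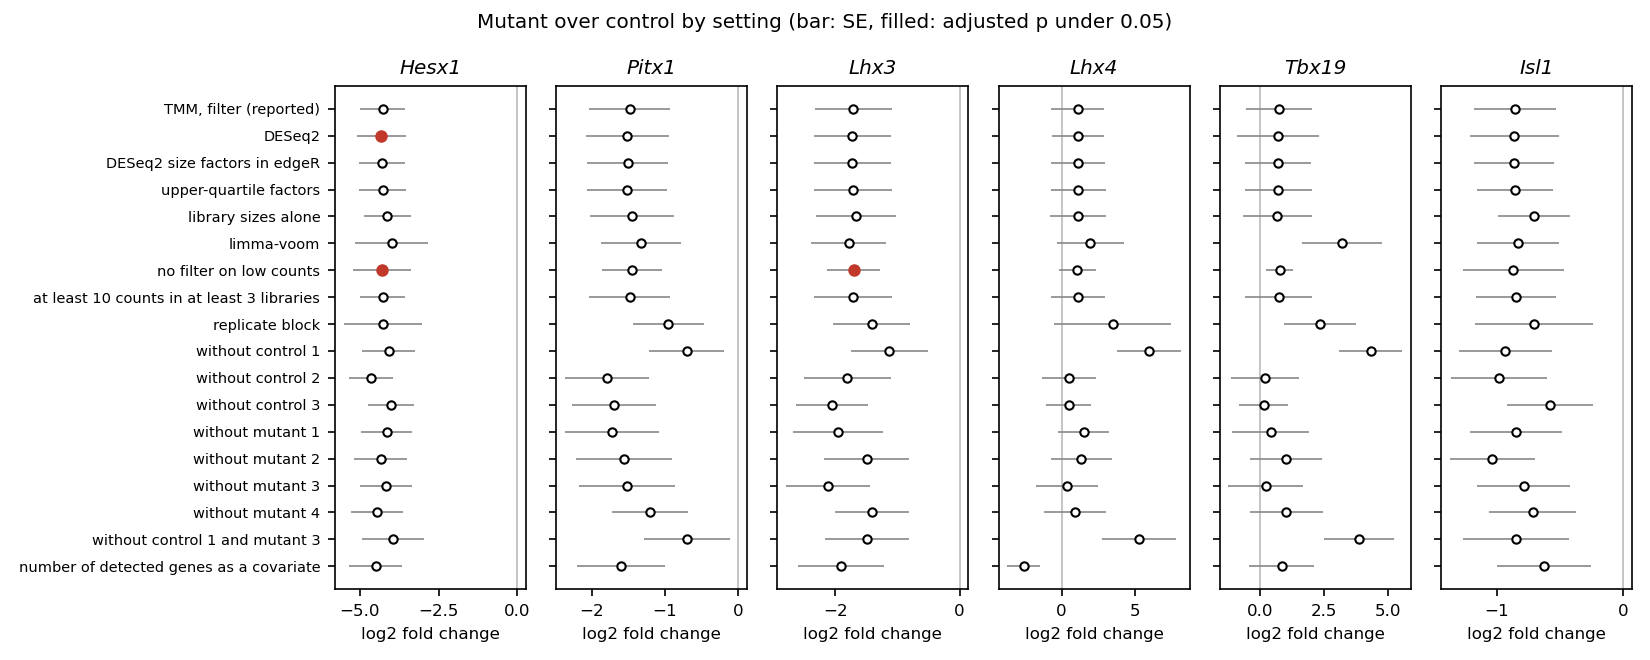
The log2 change (mutant over control) of the 6 tested factors under the reported fit and each of 17 alternatives, with bars for the SE and filled points for an adjusted p under 0.05. Hesx1 stays between -4.65 and -3.95, while Tbx19 runs from 0.14 to 4.32 and Lhx4 from -2.58 to 5.92.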

How the data were processed

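Single-cell values were UMI counts per gene, deposited by the authors as a filtered 10x matrix of 990 barcodes. The submitters' processing notes name Cell Ranger 2.0.1, DESeq2 and GRCm38 (mm10). Bulk values were read counts per gene, deposited by the authors for 7 libraries made by Smart-seq2 (oligo-dT priming, PCR, no UMIs, no strand mark), and the aligner and counter are not given in the sources used here. No column of the tables was left without a sample (0 such columns).

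Cells were clustered with Seurat 5.3.0 (log-normalisation to 10000, 20 components, resolution 0.8) without the 7 factors or the other pituitary lists, and clusters were named from marker lists (at least 3 markers at 3-fold). Their sizes may therefore differ from the study's own. Scrublet (scanpy 1.11.5) called 3 cells (0.303%), which were kept. Bulk counts were fitted with edgeR 4.0.16 (TMM, filterByExpr, quasi-likelihood test, Benjamini-Hochberg adjustment over all tested genes) in R 4.3.3, beside DESeq2 1.42.0 and limma 3.58.1. The fits were first run on simulated counts, with an outcome that is not given here. Those counts held no transcripts particular to single libraries, so they do not show how the fits behave with such transcripts.

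Named in the text were the 7 factors, the hormone genes, genes of the other lists with at least 10 UMIs in the pars tuberalis-like cells or an unadjusted p under 0.05, the 3 genes most like each factor and genes a factor is compared with. The factors and lists were chosen with earlier results of these data known. Some genes of these lists are not reported here.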

Additional observations from a re-analysis of the deposited data

Results flagged for a closer look

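Single libraries stood apart from their group in 3 of the 27 checks made for the 7 factors and the genes set beside them, by the ratio of the gap next to an end value over the whole range of the 4 mutant libraries (Dixon's ratio, past its 95% critical value). Chance alone flags about 1 in 20 such groups. The ratio was 0.997 for Gh, where mutant mouse 3 stood at 149 CPM and the other mutant libraries at 0.414 to 0.880 CPM. This is also the mutant library with the most Pou1f1, at 3.62 CPM. The ratio was 0.904 for Hes1, at 38.1 CPM in mutant mouse 1 against 5.93 to 9.01 CPM in the others, and 0.852 for Scg2, at 498 CPM in mutant mouse 4 against 1071 to 1170 CPM. None of the 7 factors passed this ratio in the mutant libraries, and groups of 3 were not checked.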

How the results depend on the processing

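The log2 changes of the 6 tested factors kept their direction in 101 of 102 alternatives, and none of the 6 passed the adjusted threshold in the fit reported, which called 0 genes. DESeq2 called 301 genes and 1 factor, Hesx1 (log2 change -4.32), which passed the same filter through the control libraries alone. Without a filter on low counts edgeR called 240 genes and 2 factors, Hesx1 (-4.31) and Lhx3 (-1.71). DESeq2's size factors called 1 gene, upper-quartile factors 1 and library sizes alone 3. With the number of detected genes as a covariate, added after the data were seen, 1 gene was called and the Lhx4 change reversed to -2.58. Leaving out 1 library at a time called 0 to 45 genes (45 without control mouse 1 and 16 without control mouse 3) and no factor. The changes then ran from -4.65 to -4.01 for Hesx1, -1.79 to -0.70 for Pitx1, -2.11 to -1.13 for Lhx3, -1.03 to -0.58 for Isl1, 0.14 to 4.32 for Tbx19 and 0.36 to 5.92 for Lhx4. Leaving out control mouse 1 and mutant mouse 3 together, also added later, gave 3.86 for Tbx19. The cause of these shifts was not tested.

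Replicate numbers did not pair the mice: deviations of same-numbered libraries correlated at -0.454, -0.01 and -0.23. With the number as a block, 0 genes were called, and 549 passed an unadjusted p under 0.05.

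In the single-cell library, thinning each cell to 3000 UMIs moved Pitx1 to 333 CPM and Isl1 to 169.7 CPM in pars tuberalis-like cells, Isl1 in neuron-like cells to 190.5 CPM, and the share of Lhx3-positive cells with Pitx1 to 66.7% of 6 cells. The mean of per-cell CPM gave 318 for Pitx1 and 188 for Isl1 in pars tuberalis-like cells. Other clustering settings left Pitx1 between 514 and 554 CPM. With 1 pooled library, no spread between mice could be given.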
